A study of Mus musculus with 3 samples.

Results

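The genes of the eukaryotic translation initiation factors were taken as all protein-coding RefSeq genes whose symbol is Eif followed by a number, which gave 56 genes out of 21887 protein-coding genes on the chromosomes that hold windows. They fell by that number into 5 Eif1, 15 Eif2, 14 Eif3, 17 Eif4, 4 Eif5 genes and 1 Eif6 gene. Their open chromatin was read from 13500 windows of 201 bp, of which 50 had their midpoint within 1 kb of an end of such a gene. The windows come from ATAC-seq, which marks accessible DNA by the insertion of sequencing adapters, on cells of the apical part of C57BL/6 mouse first molars. There was 1 library from a Gli1-CreER;Arid1a fl/fl mouse or pool, in which a tamoxifen-inducible Cre expressed from Gli1 can delete the chromatin remodeller gene Arid1a in cells with hedgehog signalling, and there were 2 from Arid1a fl/fl controls. All groups carry the floxed allele, the protocol in the labels lists tamoxifen at postnatal day 3.5 for all 3 libraries, and cells were taken at postnatal day 7.5. Each library was made from 5000 cells, and the sources used here do not give whether animals were pooled. The windows are pooled over the libraries and carry no value per library, so mutant and control could not be set against each other, the depth behind a window is not known, and values are given without replicate error.

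Initiation is the step of protein synthesis at which the small ribosomal subunit is loaded with the initiator tRNA, brought to the capped end of an mRNA and moved to the start codon. Eif2 carries the initiator tRNA, Eif1, Eif1a and Eif3 act on the small subunit, Eif4 proteins bind the cap and unwind the mRNA, and Eif5, Eif5b and Eif6 act around start codon choice and the joining of the large subunit. Growing and dividing cells depend on these factors, and most of the genes are active in nearly every tissue. Plagl1 (Zac1), whose binding motif was searched in the windows, is an imprinted zinc finger transcription factor that restrains the cell cycle. A motif site here is a match of sequence and not a measurement of binding.

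The sites of the Plagl1 motif in windows of these genes are shown first, because they are the sequences that set members with a site apart from those without. Each is given on the strand that matches the motif, with its mm10 position, and capitals mark positions 4 to 7 of the 10 bases, where nearly all sites of the list carry G except at position 5. The sites of Eif4e and Eif4e3 lie in windows inside the gene and more than 1 kb from its ends, and those of the Eif1a window are not printed.
Eif1b, chr9:120492763-120492772: cgcGGGGccc
Eif1b, chr9:120492791-120492800: tgtGAGGccg
Eif2ak2, chr17:78882585-78882594: ggaGGGGccc
Eif2ak4, chr2:118388725-118388734: ccaGAGGccc
Eif2b3, chr4:117019568-117019577: aggGAGGcca
Eif2s3x, chrX:94212915-94212924: cgaGGGGcct
Eif3h, chr15:51865509-51865518: tacGAGGctc
Eif3i, chr4:129600742-129600751: tggGGGGccc
Eif3m, chr2:105017099-105017108: cacGAGGccc
Eif4a1, chr11:69672035-69672044: cacGAGGcct
Eif4b, chr15:102074047-102074056: cagGAGGcac
Eif4e, chr3:138527512-138527521: tgtGGGGgcc
Eif4e3, chr6:99666704-99666713: cgaGAGGctc
Eif4g1, chr16:20672904-20672913: tggGGGGccg
Eif5b, chr1:37998255-37998264: cgaGGGGccg
Eif5b, chr1:37997119-37997128: gatGAGGcct
The 16 sites at gene ends, the 2 of Eif1a included, were all different in sequence. Position 5 was A in 10 of the 16 sites at gene ends of Eif genes (62.5%, exact Clopper-Pearson 95% interval 35.4 to 84.8), an interval that holds the 43.2% seen over the 3790 sites in all windows at protein-coding gene ends.

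A window at a gene end was the rule among these genes. Of the 56 genes, 47 had a window whose midpoint lay within 1 kb of either end (83.9%, exact 95% interval 71.7 to 92.4), and 9 did not. Over all protein-coding genes the share was 46.6%, or 10205 of 21887. The intervals cover counting error only and treat genes as independent. With windows anywhere in the gene body counted as well, 50 of 56 genes (89.3%) had one, against 53.5%. No test was made of the list, whose members were chosen by name, and why a gene lacks a window cannot be read from a list of regions whose selection is not given.

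The share differed in size from factor to factor, with the lowest value for Eif4. All 5 Eif1 genes had a window, as did 14 of 15 Eif2 genes (93.3%, interval 68.1 to 99.8) and 13 of 14 Eif3 genes (92.9%, interval 66.1 to 99.8). Of the Eif4 genes 10 of 17 had one (58.8%, interval 32.9 to 81.6). All 4 Eif5 genes and the 1 Eif6 gene had one. The intervals of the Eif2, Eif3 and Eif4 groups overlap, and the difference between groups was not tested. The Eif4 interval also holds the 46.6% of all protein-coding genes. The Eif4 share depends on the limit. Within 3 kb it was 76.5%, against 51.6% of all protein-coding genes. Eif4e and Eif4g3, outside the 1 kb limit, had windows 180 and 283 bp downstream of an annotated start inside the gene.

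**Figure D1:**
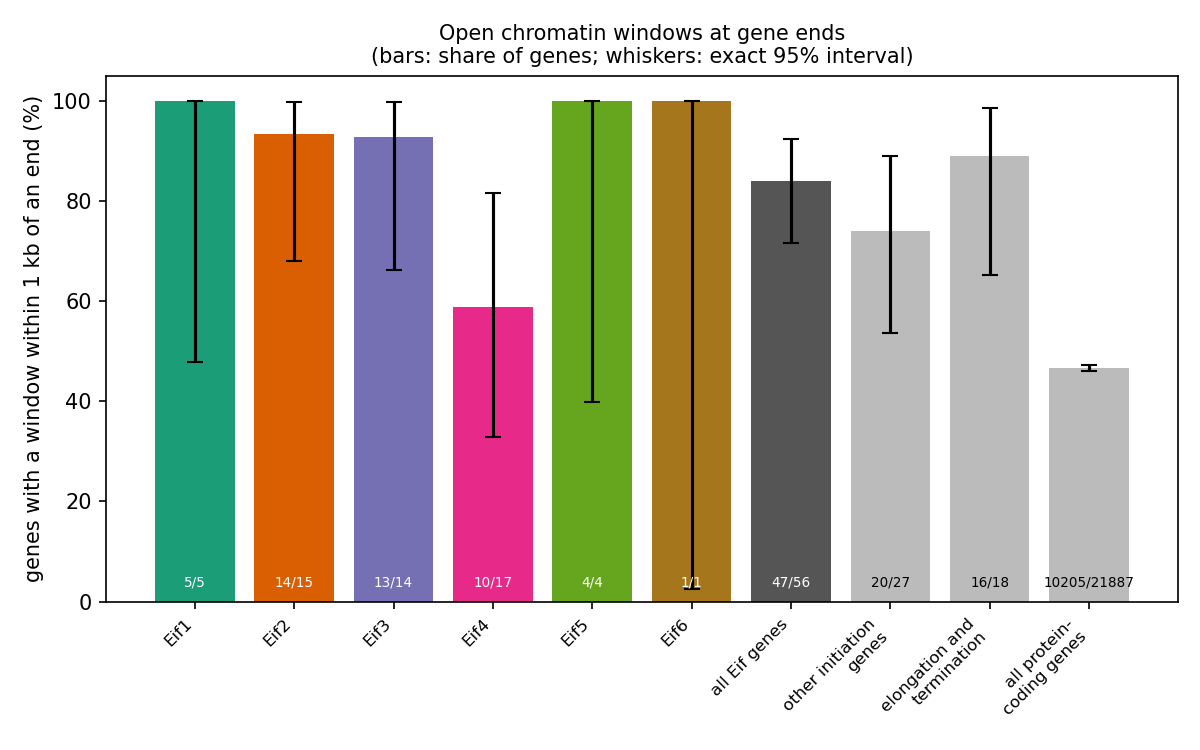
Share of genes (%) with an open chromatin window whose midpoint lies within 1 kb of a gene end, for the 6 factor groups, all Eif genes, 2 further lists and all protein-coding genes. Bars give the share with the gene counts at their foot, and whiskers the exact 95% interval; Eif4 stands at 58.8% and all Eif genes at 83.9%, against 46.6% of all protein-coding genes.

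The genes of the start codon factors Eif1 and Eif1a were all covered. Eif1 guards the choice of start codon, and its window had 70.1% GC with its midpoint 175 bp downstream of the annotated start. Eif1b, a close relative, had a window of 65.7% GC with 2 sites, of scores 6.01 and 6.05 (HOMER log-odds). The X-linked Eif1ax had a window of 79.1% GC with 0 sites, 19 bp downstream of its start. Its autosomal relative Eif1a had a window of 72.6% GC with 2 sites, of scores 6.46 and 5.64. The last of the group, Eif1ad, shared its window (63.2% GC, 0 sites) with Banf1.

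In the Eif2 group, subunits, exchange factor and kinases nearly all had a window, 14 in all, and 4 of these windows held a site. The 3 subunits of Eif2 are encoded by Eif2s1, whose protein is phosphorylated under stress, by Eif2s2 and by the gamma subunit genes Eif2s3x and Eif2s3y. Eif2s1 had a window of 64.7% GC centred 339 bp upstream of its start and shared with Atp6v1d, and Eif2s2 had a window of 60.2% GC 138 bp downstream of its start. Both held 0 sites. Eif2s3x on the X chromosome had a window of 53.2% GC, 243 bp upstream of its start, with a site of score 6.28. Eif2s3y, its counterpart on the Y chromosome, had no window, and the nearest lay 751318 bp away. Eif2a and Eif2d, which encode other initiator tRNA binding proteins, had windows of 72.1% and 66.2% GC with 0 sites.

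The promoter sequences of the X and Y copies are shown because one gene has a window and the other has not. They run from 250 bases before to 50 after the RefSeq start on the gene's own strand (GRCm38.p6), and capitals mark the letters AAGATGGC, the core of a YY1 site.
Eif2s3x, chrX:94212602-94212901, minus strand: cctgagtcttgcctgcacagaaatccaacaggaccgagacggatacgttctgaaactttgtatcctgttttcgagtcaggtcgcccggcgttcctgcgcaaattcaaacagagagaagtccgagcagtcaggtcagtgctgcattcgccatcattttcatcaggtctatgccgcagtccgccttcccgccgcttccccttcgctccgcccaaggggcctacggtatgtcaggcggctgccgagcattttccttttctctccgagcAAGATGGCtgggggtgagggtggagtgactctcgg
Eif2s3y, chrY:1010345-1010644, plus strand: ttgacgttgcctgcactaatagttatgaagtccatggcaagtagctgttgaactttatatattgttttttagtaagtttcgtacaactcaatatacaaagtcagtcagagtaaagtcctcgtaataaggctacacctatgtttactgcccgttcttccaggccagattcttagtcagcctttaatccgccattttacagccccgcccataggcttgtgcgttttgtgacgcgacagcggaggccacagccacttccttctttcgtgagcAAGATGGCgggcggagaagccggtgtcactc
The Eif2s3x promoter had 57.0% GC and 21 CpG dinucleotides, and shared 108 bases with its window. The Eif2s3y promoter had 46.7% GC and 14 CpG dinucleotides. Both carried the capital letters once, just after the start, and also a GC box on either strand. The letters TATAAA were found, on either strand, in the Eif2s3y promoter and not in that of Eif2s3x. The window nearest to Eif2s3y, 751318 bp away, also lies on the Y chromosome. Sex is not among the labels used here, so the share of cells with a Y chromosome is not known. Whether the promoter sequence bears on the missing window was not tested.

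The exchange factor Eif2b, which reloads Eif2 with GTP, has 5 subunit genes and all 5 had a window at an end. GC content of these windows ran from 58.2% in Eif2b2 to 71.1% in Eif2b3, and CpG from 6 per 100 steps between neighbouring bases in Eif2b5 to 15.5 in Eif2b1. Only the window of Eif2b3 held a site among the 5, with a score of 5.98. The windows of Eif2b1, Eif2b2, Eif2b4 and Eif2b5 all covered the annotated start, with midpoints no more than 13 bp from it. For Eif2b3 the promoter table gives no start.

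The genes of the 4 kinases that phosphorylate Eif2 and so slow initiation also all had a window, and 2 of them held a site. Eif2ak4 (Gcn2), which responds to lack of amino acids, had a site of score 6.26 in a window of 72.1% GC. Eif2ak2 (Pkr), which responds to double-stranded RNA, had a site of score 5.72 in a window of 66.7% GC centred 9 bp from the start. Eif2ak1 (Hri), which responds to lack of heme, and Eif2ak3 (Perk), which responds to misfolded protein in the endoplasmic reticulum, had windows of 61.7% and 58.2% GC with 0 sites.

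Eif3 is the largest of the factors and holds the small subunit and the mRNA factors together, and its windows spanned a wider range of GC content than those of the other factors. Of the 14 genes, 13 had a window, with GC content from 36.8% in Eif3b to 75.6% in Eif3j1 and a median of 64.7%. Sites lay in the windows of 3 genes. Eif3i had the highest score of all Eif sites, 6.73, in a window shared with Tmem234. Eif3m had a site of score 6.47 and Eif3h a site of score 5.71. The windows of Eif3a, Eif3b, Eif3c, Eif3d, Eif3e, Eif3f, Eif3g, Eif3j1, Eif3k and Eif3l held 0 sites.

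Eif3b, which encodes a scaffold subunit, had the lowest GC content of the Eif windows, with a CpG value of 2 per 100 steps. Of the 9078 windows at protein-coding gene ends, 0.0881% had a lower GC content. The next lowest Eif windows were those of Eif3k (47.3% GC, shared with Map4k1) and Eif3d (52.2% GC). The window of Eif3b lay upstream, centred 175 bp before the start, and shared 176 bases with the promoter sequence. That promoter is shown with CpG dinucleotides in capitals, since it changes in composition along its length.
Eif3b, chr5:140419055-140419354, plus strand: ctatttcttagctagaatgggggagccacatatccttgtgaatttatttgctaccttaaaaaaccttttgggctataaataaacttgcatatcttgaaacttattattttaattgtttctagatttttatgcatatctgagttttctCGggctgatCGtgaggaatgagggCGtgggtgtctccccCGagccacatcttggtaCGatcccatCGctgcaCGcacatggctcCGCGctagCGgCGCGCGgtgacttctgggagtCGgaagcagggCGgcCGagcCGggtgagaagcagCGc
The first of its 18 CpG dinucleotides lies 103 bases before the start, and the bases before it hold no CpG. The 300 bases as a whole had 49% GC. They held the letters TATAAA and a GC box.

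Eif3j1 and Eif3j2 encode the loosely bound j subunit from separate chromosomes, and their genes differed in this list. Eif3j1 had a window of 75.6% GC and 13 CpG per 100 steps, centred 5 bp from its start. Eif3j2, a gene of 2419 bp, had no window, with the nearest 37306 bp away.

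The promoters of Eif3m and Eif2ak2 are shown because their sites lie inside the promoter sequence, and capitals mark the site.
Eif3m, chr2:105016978-105017277, minus strand: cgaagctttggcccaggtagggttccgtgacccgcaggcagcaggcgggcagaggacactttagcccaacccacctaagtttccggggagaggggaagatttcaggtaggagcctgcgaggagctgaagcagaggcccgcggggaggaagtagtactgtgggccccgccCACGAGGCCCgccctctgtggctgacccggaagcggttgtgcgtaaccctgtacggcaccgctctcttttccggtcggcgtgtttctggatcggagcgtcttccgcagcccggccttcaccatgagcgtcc
Eif2ak2, chr17:78882523-78882822, minus strand: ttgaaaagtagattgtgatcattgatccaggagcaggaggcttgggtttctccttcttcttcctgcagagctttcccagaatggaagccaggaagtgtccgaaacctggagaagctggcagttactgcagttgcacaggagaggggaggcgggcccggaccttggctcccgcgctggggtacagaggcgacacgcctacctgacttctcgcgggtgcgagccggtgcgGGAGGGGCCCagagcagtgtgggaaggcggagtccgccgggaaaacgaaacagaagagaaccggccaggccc
In both genes the site lies on the strand of the gene and before the start, its middle 76 bp upstream in Eif3m and 17 bp upstream in Eif2ak2. The Eif3m promoter also held the ETS core CCGGAAG and a GC box, and that of Eif2ak2 held none of the 5 promoter motifs reported here. The promoters had 64.7% and 60.7% GC.

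Eif4 had the lowest share of genes with a window. Its 11 windows at gene ends had a median GC content of 69.7% and ranged from 61.2% in Eif4a2 to 85.6% in Eif4e2, and none of them had under 60%. The median CpG value was 12 per 100 steps. Sites lay in the windows of Eif4a1, Eif4b and Eif4g1, with scores of 5.93, 6.20 and 5.58.

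Among the Eif4a helicases, which unwind the leader of the mRNA, 3 of 4 had a window. Eif4a1 and Eif4a2 had windows of 67.7% and 61.2% GC, centred 448 and 397 bp downstream of their starts. Eif4a3, a core protein of the exon junction complex, had a window of 69.2% GC and 17 CpG per 100 steps over its start, and 95.9% of all windows at gene ends had a lower CpG value. Eif4a3l1, a gene of 2445 bp named as an Eif4a3-like gene, had no window, with the nearest 138701 bp away. The promoters of this pair are shown with CpG dinucleotides in capitals.
Eif4a3, chr11:119299994-119300293, minus strand: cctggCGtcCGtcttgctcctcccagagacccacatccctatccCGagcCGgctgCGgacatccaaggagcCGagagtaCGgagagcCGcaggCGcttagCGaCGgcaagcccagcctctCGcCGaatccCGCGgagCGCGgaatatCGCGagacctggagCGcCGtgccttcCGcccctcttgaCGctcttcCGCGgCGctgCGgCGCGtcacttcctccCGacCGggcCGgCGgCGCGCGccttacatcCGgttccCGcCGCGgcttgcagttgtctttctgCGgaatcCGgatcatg
Eif4a3l1, chr6:136327289-136327588, plus strand: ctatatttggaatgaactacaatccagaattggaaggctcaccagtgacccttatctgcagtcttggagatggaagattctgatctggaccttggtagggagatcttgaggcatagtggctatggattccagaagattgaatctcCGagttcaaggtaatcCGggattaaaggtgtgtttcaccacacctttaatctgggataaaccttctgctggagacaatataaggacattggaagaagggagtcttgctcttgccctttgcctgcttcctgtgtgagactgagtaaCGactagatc
The Eif4a3 promoter held 42 CpG dinucleotides and 68.7% GC, and shared 184 bases with the window. The Eif4a3l1 promoter held 3 CpG dinucleotides and 45% GC.

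Of the 4 cap-binding genes 1 had a window at an end. Eif4e2, a relative that represses translation, had the window richest in GC of all Eif genes (85.6%, 18 CpG per 100 steps). Only 0.0991% of windows at gene ends had a higher GC content. Eif4e itself, the cap-binding protein, had no window within 1 kb of an end, but had 1 inside the gene with 82.1% GC and a site of score 6.24. This window lay 1257 bp from the outermost end and 180 bp downstream of a further annotated start. Eif4e3 had 1 window of 76.1% GC with a site of score 5.79, at 26204 bp from the nearest gene end. Eif4e1b, the form of oocytes, had none, and the nearest window lay 1045 bp from its end, just outside the limit.

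The scaffolds and the proteins that restrain Eif4e gave a mixed picture. Eif4g1, the main scaffold, had 2 windows, a window of 81.6% GC with a site of score 5.58 near its start and a window of 69.7% GC with 0 sites beyond its other end, shared with Fam131a. Eif4g2, which serves cap-independent translation, had a window of 66.7% GC and 0 sites. Eif4g3 had none within 1 kb of an end, but a window of 83.1% GC lay inside the gene, 283 bp downstream of an annotated start and 1960 bp from the gene end. Eif4b and Eif4h, which assist the helicase, had windows of 68.2% and 73.1% GC, the first with a site of score 6.20. Eif4ebp1 and Eif4ebp2, which bind Eif4e until mTOR phosphorylates them, had windows of 76.1% and 79.1% GC with 0 sites, and Eif4ebp1 had another of 58.2% GC at 1037 bp, just outside the limit. Eif4ebp3 had none, the nearest lying 3892 bp away. Eif4enif1, which carries Eif4e into the nucleus, had none either, the nearest lying 21865 bp away.

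The genes of the Eif5 and Eif6 groups all had windows. Eif5, which triggers GTP hydrolysis on Eif2, had a window of 77.6% GC with 0 sites. Eif5a, the hypusine-bearing factor, and its relative Eif5a2 had windows of 58.7% and 80.6% GC with 0 sites. Eif5b, which joins the subunits, had 2 windows, of 68.7% and 54.7% GC, with 1 site in each (scores 5.67 and 5.89), both shared with Txndc9. The window of 54.7% GC was centred 826 bp upstream of the start and was the farthest from a gene end of the 50. Eif6, which keeps the large subunit from joining too early, had windows of 65.2% and 60.7% GC with 0 sites, the second shared with Mmp24 and BC029722.

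Gene-end windows of Eif genes with a known start lay within 1 kb of a start, but for the second window of Eif4g1 beyond its other end. The RefSeq promoter table holds 44 of the 56 genes and thus their strand. All 39 of these that had a window at an end had it within 1 kb of an annotated start, against 94.6% of 8281 protein-coding genes. With windows inside the gene counted too, 41 of the 44 (93.2%) had one within 1 kb of an annotated start, against 50.7% of 17492. The 3 others were Eif2s3y, Eif4a3l1 and Eif4enif1. Within 200 bp the count was 31 of 39 (79.5%), against 73.6%. Of the 40 windows within 1 kb of a start, 21 covered it (52.5%), 14 lay wholly downstream (35%) and 5 wholly upstream (12.5%). Over all protein-coding genes these shares were 47.7%, 33.3% and 19.0% of 7890 windows. All windows are 201 bp wide, so a window wholly upstream or downstream of the start does not show where the open chromatin ends.

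The windows of the Eif3 and Eif2 groups covered the start more often than those of the Eif1, Eif4 and Eif5 groups. In the Eif3 group 8 of 10 windows covered the start and in the Eif2 group 9 of 13, with median positions of 8.5 and 2 bp downstream. In the Eif4 group 2 of 8 covered it and 6 lay wholly downstream, with a median of 231.5 bp and a range from -34 to 448 bp. The windows downstream were those of Eif4a1, Eif4a2, Eif4b, Eif4e2, Eif4g1 and Eif4h. Low counts over the start were not particular to Eif4. In the Eif1 group 1 of 4 windows covered it and 2 lay wholly downstream, and in the Eif5 group 1 of 5 covered it and 3 lay wholly downstream. The difference between groups was seen in the values and was not tested. It concerns the position of windows of fixed width and not the extent of open chromatin.

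**Figure D2:**
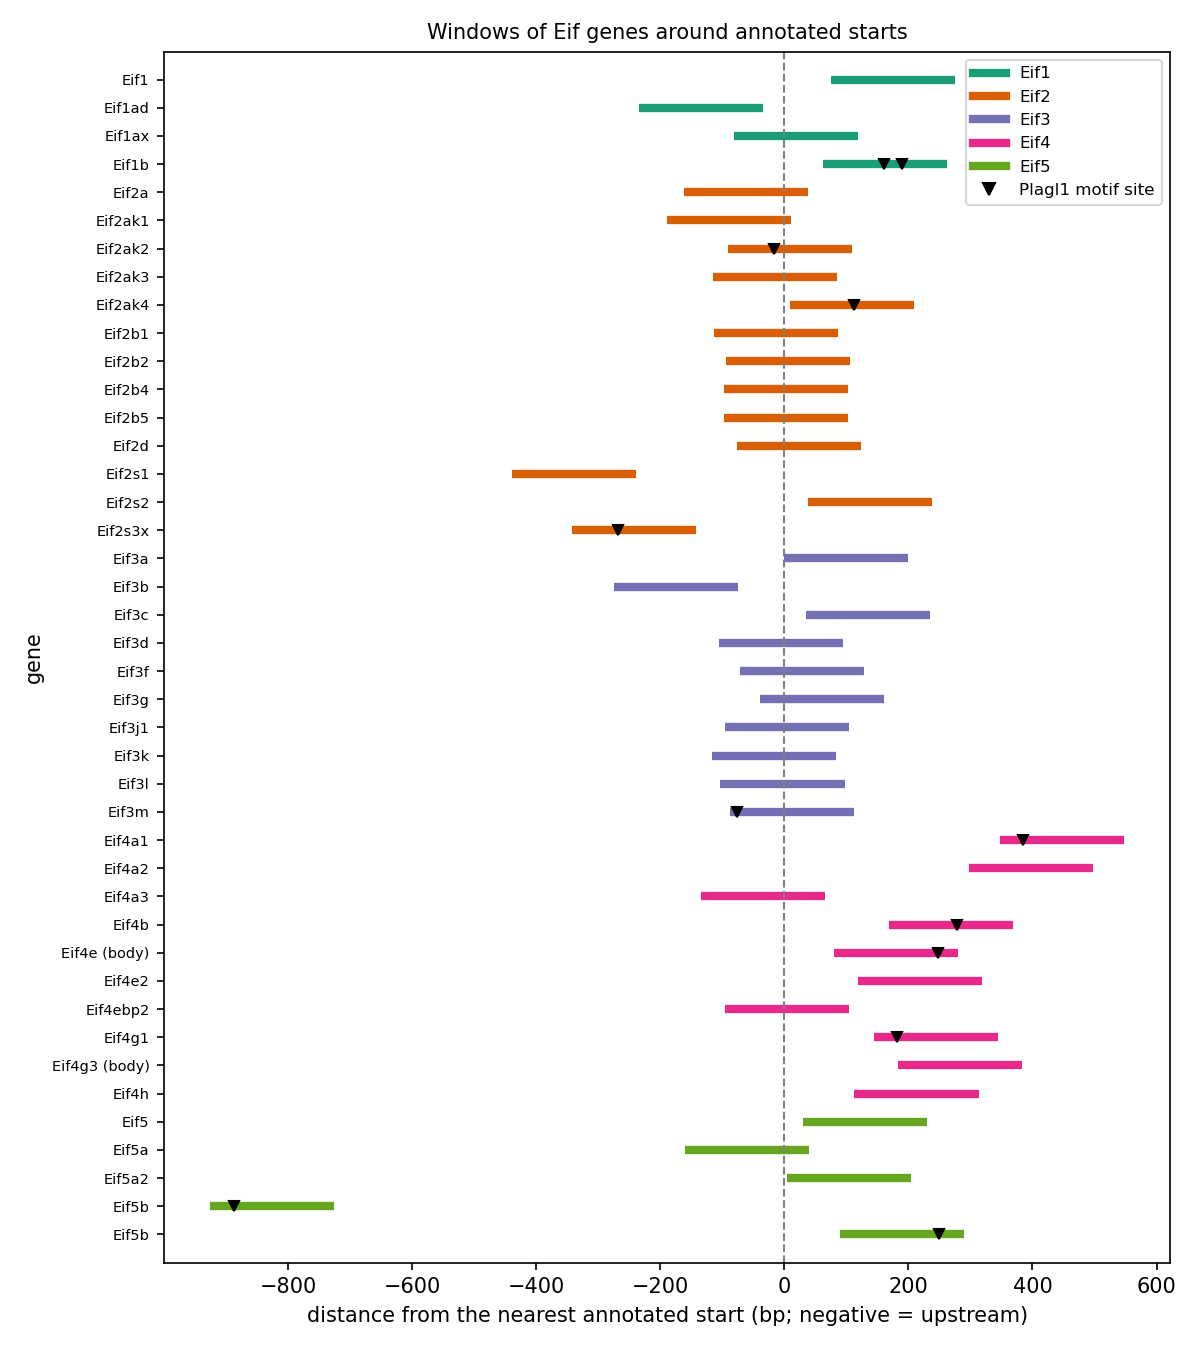
Windows of Eif genes (bars of 201 bp, coloured by factor group) by distance in bp from the nearest annotated start, with upstream negative, for genes with a start in the promoter table. Triangles mark Plagl1 motif sites and "(body)" marks windows over 1 kb from a gene end; most Eif2 and Eif3 bars cross the start, and 6 of the 8 Eif4 gene-end bars lie to its right.

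In base composition the windows of Eif genes lay close to windows at gene ends in general. The 50 windows had a median GC content of 66.7% (exact 95% interval of the median 64.7 to 69.2) and a median CpG value of 9.75 per 100 steps (8 to 11). The 9078 windows at protein-coding gene ends had medians of 68.2% and 10, which lie inside those intervals. GC content was 70% or more in 15 of the 50 windows (30%), against 42.6% of all, and under 60% in 10 (20%), against 16.3%. The median distance of the midpoint to the gene end was 129 bp, against 131 bp.

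**Figure D3:**
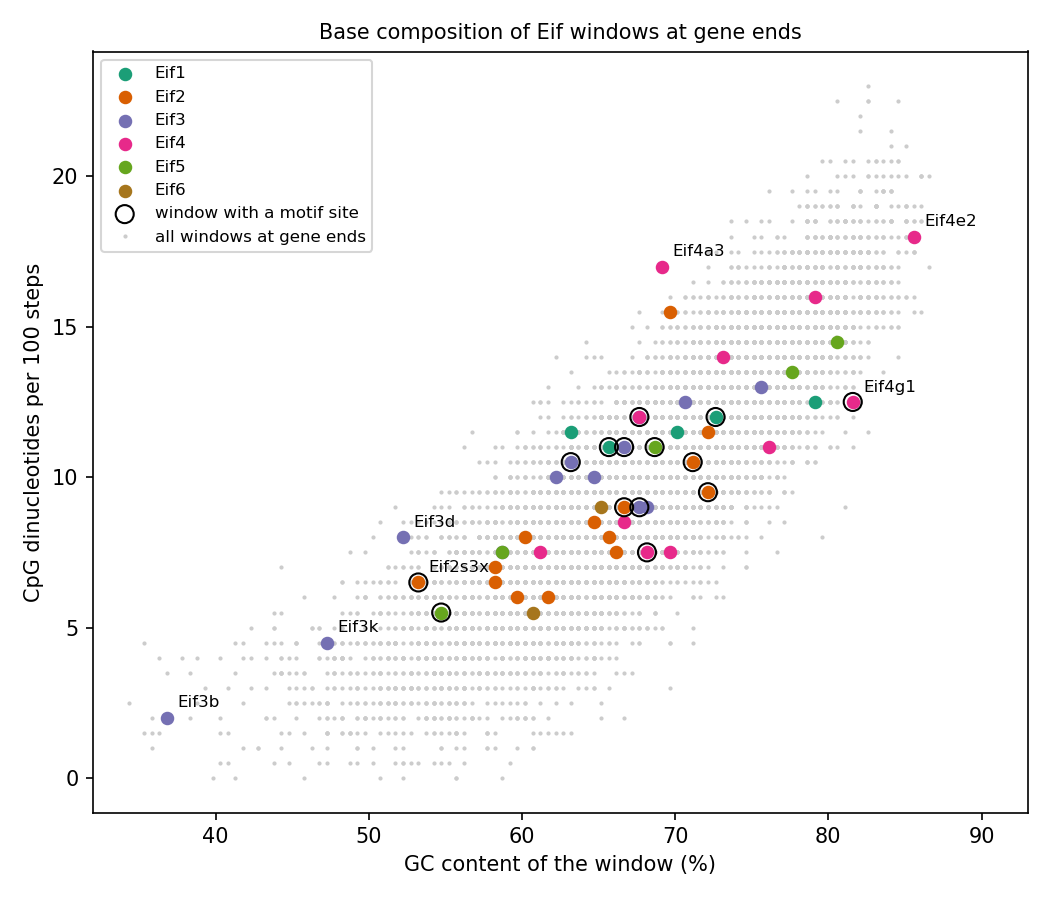
GC content (%) and CpG dinucleotides per 100 steps of the 50 Eif windows at gene ends (coloured by factor group, black rings for windows with a motif site) over the 9078 windows at protein-coding gene ends (grey). Eif3b lies at the low end with 36.8% GC and Eif4e2 at the high end with 85.6%.

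Plagl1 motif sites were present in a minority of the genes. Of the 47 genes with a window, 13 had a site in it (27.7%, exact interval 15.6 to 42.6), against 33.4% of 10205 protein-coding genes with a window, which lies inside the interval. By factor the counts were 2 of 5 for Eif1, 4 of 14 for Eif2, 3 of 13 for Eif3, 3 of 10 for Eif4, 1 of 4 for Eif5 and 0 of 1 for Eif6. Eif1a, Eif1b and Eif5b had 2 sites each and the other 10 genes had 1. A site at or above the median score of the whole list (5.94) was present in 8 genes (17.0%), against 18.5%. The shares were also read by GC content. Of Eif windows with 60 to 70% GC, 8 of 25 held a site (32%), against 33.0% of all. Of those with 70% or more, 4 of 15 did (26.7%), against 35.7%, and of those under 60%, 2 of 10 (20%), against 24.4%. By CpG value the share over all windows was nearly flat. Of Eif windows below 7.5 CpG per 100 steps, 2 of 9 held a site (22.2%), against 32.2% of all. From 7.5 to 11 it was 9 of 24 (37.5%), against 33.1%, and above 11 it was 3 of 17 (17.6%, exact interval 3.80 to 43.4), against 32.8%.

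The scores were spread about as in the whole list, though the highest of 16 sites cannot be set against the highest of 5753. The 16 sites had a median score of 5.99 and ran from 5.58 in Eif4g1 to 6.73 in Eif3i, while all 5753 sites of the list had a median of 5.94 and ran from 5.51 to 7.74. At or above that median lay 9 of the 16 (56.2%), against 50.1% of all sites, and above the upper quartile of the list (6.25) lay 5 of the 16 (31.2%), against 25.0%. Sites on the strand of the gene numbered 7 and on the other strand 4, among the 11 sites of genes with a known strand. Of these 11, 4 lay upstream of the start and 7 downstream. No shares by strand or side are given for the sites of all genes, so these counts describe the 11 sites only.

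**Figure D4:**
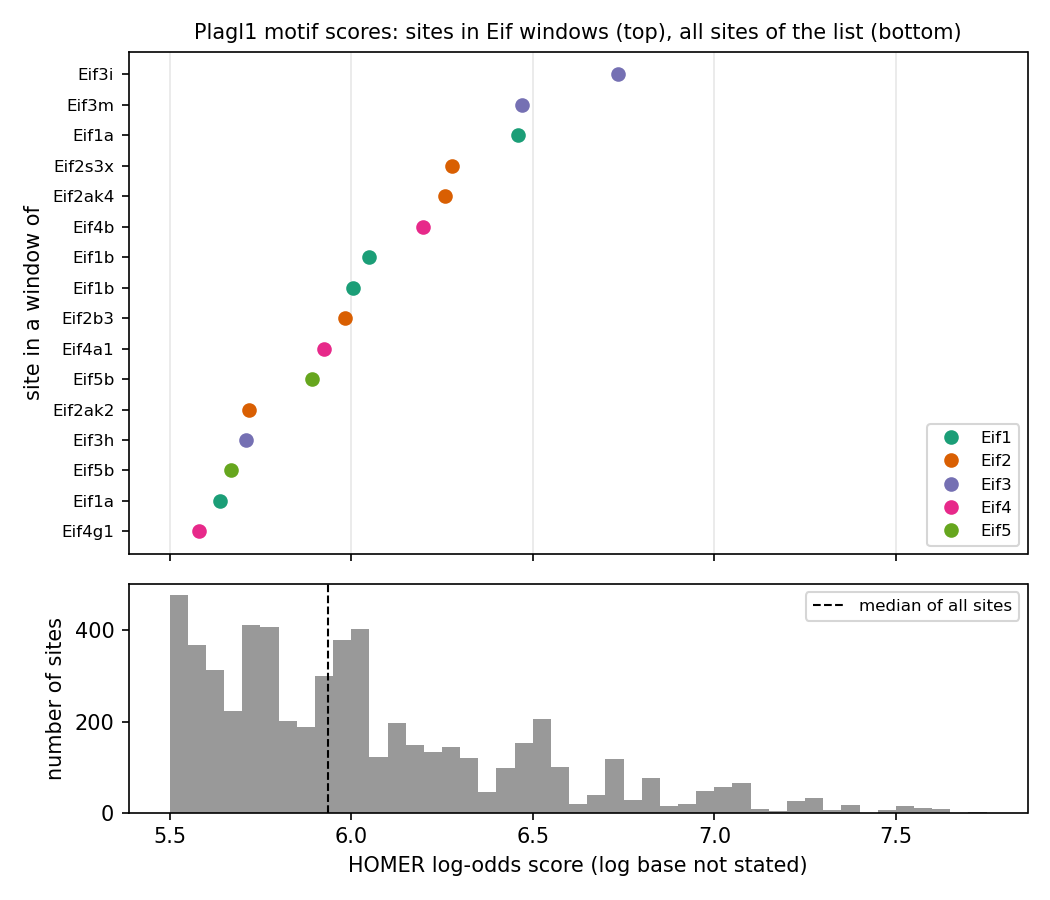
HOMER log-odds scores of the 16 Plagl1 motif sites in Eif windows at gene ends, by gene and coloured by factor group (top), above the number of sites per score bin in the whole list of 5753 (bottom). The Eif sites run from 5.58 to 6.73, on both sides of the median of all sites at 5.94.

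Windows shared with a neighbour make the assignment to an Eif gene uncertain. Such sharing touched 12 of the 47 genes (25.5%), against 27.8% of all protein-coding genes with a window. Besides the pairs named above, Eif2a shared its window with Serp1, Eif2ak2 with Gm26637, Eif2b1 with Gtf2h3, Eif2b4 with Snx17 and Eif1a with Tmed7. More than 1 window at the ends was found in 3 genes, Eif4g1, Eif5b and Eif6 (6.38%), against 3.61%.

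The 300-base promoter sequences were searched on both strands for short motifs of widely used promoter factors. The ETS core CCGGAAG was in 14 of the 39 Eif promoters whose gene had a window (35.9%), against 20.2% of 8281. They were those of Eif1ad, Eif1ax, Eif1b, Eif2ak1, Eif2b2, Eif2b4, Eif3c, Eif3d, Eif3g, Eif3l, Eif3m, Eif4e2, Eif4ebp2 and Eif5a2. The GC box GGGCGG was in 30 (76.9%, against 69.7%) and the letters CCAAT in 12 (30.8%, against 40.7%). The YY1 core AAGATGGC was in 3 (7.69%, against 5.13%), and TATAAA also in 3 (7.69%, against 6.12%). Over all promoters, with a window or without, the ETS core was in 14 of 44 Eif promoters (31.8%) and in 11.9% of 17492. No motif is contained in another of these 5. The motif shares carry no interval and were not tested. A match is a description of letters and says nothing of a bound factor.

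Pseudogenes named after initiation factors were counted too. Of 11 Eif pseudogenes 1 had a window near an end, Eif2s3x-ps1, a count too small to set against the 0.874% of all 9955 pseudogenes. The window of Eif2s3x-ps1 held 0 sites and also lay at an end of the protein-coding gene Zfp707.

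Other genes of translation were counted in the same way. Of a list of 27 further genes of initiation and its control, 20 had a window at an end (74.1%, exact interval 53.7 to 88.9), against 46.6% of all protein-coding genes. A site lay in 7 of the 20 (35.0%, interval 15.4 to 59.2), close to the 33.4% of all protein-coding genes with a window. They were found in Abce1, which recycles ribosomes (best score 7.55), in the poly(A)-binding protein partners Paip1 (7.0) and Paip2 (5.60), in the helicase gene Ddx3x (5.81), in the kinase genes Mtor and Rps6kb1 (6.24 each), and in Ppp1r15a (6.25), whose protein reverses the phosphorylation of Eif2. The 7 without a window within 1 kb of an end were Mcts1, Pdcd4, Larp1, Mknk1, Impact, Mtif2 and Mtif3. The nearest window lay just outside the limit for Mtif2 (1066 bp), Impact (1088 bp) and Mknk1 (1365 bp). It lay farther off for Mtif3 (2776 bp), Pdcd4 (6971 bp), Larp1 (10693 bp) and Mcts1 (21637 bp). Of 18 elongation and termination factor genes, 16 had a window (88.9%, interval 65.3 to 98.6), against the same 46.6%. A site lay in 8 of the 16 (50%, interval 24.7 to 75.3), and the 33.4% of all protein-coding genes with a window lies inside that interval. The best score among them was that of the release factor gene Etf1 (7.07, 4 sites), followed by Eef1a1, Eef1g, Eef1b2 and Eef1d (5.99, 5.97, 5.96 and 5.95), Gspt1 (5.77), Tsfm (5.67) and Tufm (5.53). Eef1a2 and Gspt2 had no window.

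Of markers of the labelled tissue, 7 of 14 dental mesenchyme and odontoblast genes had a window at an end (50%), which is near the 46.6% of all protein-coding genes and so does not mark the tissue. Barx1, Msx1 and Col1a1 were among those with one, and Dspp, Dmp1 and Pax9 were without. Of dental epithelium genes 1 of 6 had one (Ambn), of immune genes 1 of 3 (Cd3d) and of endothelial genes 1 of 3 (Kdr), counts too small to set against that share. The part of such cells in the Eif windows was not tested.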

How the data were processed

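The samples were 1 library from Gli1-CreER;Arid1a fl/fl and 2 from Arid1a fl/fl molars, pooled in the deposited tables. Per the submitters' processing notes, the genome was mm10, the aligner Bowtie2 2.3.5 and the peak caller MACS2 2.1.1, with cutadapt 1.18 and FastQC 0.11.8 for the reads and with bedtools, Picard and edgeR also named. Per the file headers, a union of peaks was annotated by HOMER with the Zac1 (Plagl1) motif. The deposited GC value is a fraction of a window's bases, and the deposited CpG value a fraction of the steps between neighbouring bases, and they are given as percent and per 100 steps. The deposited score of a site is a HOMER log-odds score whose log base is not stated. Depth per library is unknown.

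The gene table was that of RefSeq for GRCm38.p6, with strand, starts and promoter sequences taken from the RefSeq promoter table of that build. Windows were given to genes by a midpoint no farther than 1 kb from either end, and a window counted for every gene in reach. Positions count from 1. For 1543 windows wholly inside a promoter sequence, GC and CpG recomputed from the bases matched the deposited fractions in all 1543. The sites of both deposited tables matched. Where intervals are given, those of shares are exact Clopper-Pearson 95% intervals and those of medians are exact intervals from order statistics. Other shares carry none. No test was run, since no value has a replicate and the genes were chosen by name. The assignment was tested on simulated data. The NRF1 motif was also searched in the promoters and is not reported here.

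Every Eif gene may be named. Values are given for genes with a site, with extreme base composition, with more than 1 window or with none, and for others by role. Members, lists, motifs and alternatives were chosen with earlier results of these data known. Alternatives were the distance, the genes counted, the nearest gene only, the start only, shared windows left out and higher scores only. Analyses used Python 3.11.15, numpy 2.4.6, pandas 2.3.3, scipy 1.17.1 and matplotlib 3.10.9.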

Additional observations from a re-analysis of the deposited data

How the results depend on the processing

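Over 53 alternatives, 50 values stayed inside the 95% interval of the value reported, which measures counting error and not dependence on a setting. Of the 3 outside, the share of Eif genes with a window was 93.2% when only annotated starts were used, because this counts 44 genes and lets in the windows of Eif4e and Eif4g3. The share with a site was 10.6% when only scores in the upper quartile of the list counted, which removes lower scores by construction. The other initiation genes stood at 88.9% with a limit of 3 kb. The share of Eif genes with a window was 82.1% at 500 bp and 89.3% at 3 kb. Over all protein-coding genes it was 42.7% and 51.6%. For the nearest gene only it was 76.8% of Eif genes. No share over all genes is given for that setting or for the upper-quartile sites. Among Eif4 genes the share with a window was 76.5% at 3 kb, against 58.8% at 1 kb. Elongation and termination genes stood at 77.8% at 500 bp and 72.2% for the nearest gene only, against 88.9%. These shifts count as inside because intervals of small groups are wide, as 2.5 to 100 for the 1 Eif6 gene. The alternatives also count largely the same genes again, so the count of 50 does not measure robustness. The alternatives for single factor groups and the 2 further lists were chosen after seeing the data. No paired analysis was possible because the files hold no value per library. No library could be left out for the same reason. Unknown depth and an unknown choice of regions limit what a missing window means.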
